A study of Mus musculus with 10 samples.

Results

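Expression of 9 genes of the transient receptor potential (TRP) family was described across pools of mouse vagal sensory neurons. The genes were *Trpv1*, *Trpv2*, *Trpv4*, *Trpa1*, *Trpm2*, *Trpm3*, *Trpm4*, *Trpm7* and *Trpm8*, taken by symbol from the 24421 rows of the count files, and all 9 symbols had a row. Single neurons were dissociated from the rostral part (jugular) or the caudal part (nodose) of the vagal ganglia, picked by hand and pooled before RNA sequencing, and each of the 5 groups had 2 pools. A Trpv1-tdTomato-positive pool held 30 neurons, a negative pool 15 and a capsaicin pool 14 to 16. In the Trpv1 selection the neurons came from Trpv1-tdTomato mice, in which Cre driven from the *Trpv1* gene switches on the red protein tdTomato, so that a cell is red if it expresses *Trpv1* or did so earlier in development. This selection gave Trpv1-tdTomato-positive nodose pools, Trpv1-tdTomato-positive jugular pools and Trpv1-tdTomato-negative nodose pools, the last from colourless neurons of the same mice. In the capsaicin selection the neurons came from wild-type C57BL/6 mice and were chosen by calcium imaging. Nodose neurons there were ones that answered both capsaicin and α,β-methylene ATP (which opens P2X receptors), and jugular neurons were ones that answered capsaicin alone. The selections also differed in the sequencing core, the strain and the depth, which cannot be told apart from the selection. The neurons of the Trpv1 selection came from 2 mice, and the labels do not say from which mouse each pool was taken. All p-values therefore measure the spread between pools, which may be technical. In bulk pools fewer cells of a type and less RNA per cell cannot be told apart.

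TRP channels are tetrameric cation channels of the plasma membrane, most of them permeable to calcium, that open in response to temperature, chemicals, lipids or intracellular calcium. In vagal C-fibres TRPV1, the receptor for capsaicin and noxious heat, and TRPA1, the receptor for reactive irritants such as allyl isothiocyanate, start the action potentials that lead to cough, bronchospasm and other airway reflexes. TRPM8 is the receptor for menthol and cooling, and the other members include channels gated by heat, by swelling, by ADP-ribose and by intracellular calcium.

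Promoters are shown for 3 of the members, because *Trpv1* is the gene both selections were built on, *Trpv2* was found at a high level in every pool and *Trpm8* was found mainly in jugular pools. RefSeq (GRCm38.p6) gave the 300 bases from 250 before to 50 after the transcription start for 7 of the 9 members, and *Trpa1* and *Trpm4* were the others. The sequences run 5′ to 3′ on the strand of the gene, and capitals mark the letters TGTGGT, the core read by Runx transcription factors, which was searched on both strands.
Trpv1, chr11:73233899-73234198, plus strand: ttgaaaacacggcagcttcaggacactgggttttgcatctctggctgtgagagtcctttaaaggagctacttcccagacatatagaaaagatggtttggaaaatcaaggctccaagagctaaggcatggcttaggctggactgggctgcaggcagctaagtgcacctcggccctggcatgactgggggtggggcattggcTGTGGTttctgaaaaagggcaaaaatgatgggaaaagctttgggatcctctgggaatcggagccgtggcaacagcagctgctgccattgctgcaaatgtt
Trpv2, chr11:62574236-62574535, plus strand: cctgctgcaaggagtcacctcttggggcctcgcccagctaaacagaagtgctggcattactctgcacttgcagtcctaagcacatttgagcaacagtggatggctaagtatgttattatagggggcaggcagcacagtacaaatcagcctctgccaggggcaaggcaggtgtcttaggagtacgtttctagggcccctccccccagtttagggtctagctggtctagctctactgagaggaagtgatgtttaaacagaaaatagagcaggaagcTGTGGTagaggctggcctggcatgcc
Trpm8, chr1:88306485-88306784, plus strand: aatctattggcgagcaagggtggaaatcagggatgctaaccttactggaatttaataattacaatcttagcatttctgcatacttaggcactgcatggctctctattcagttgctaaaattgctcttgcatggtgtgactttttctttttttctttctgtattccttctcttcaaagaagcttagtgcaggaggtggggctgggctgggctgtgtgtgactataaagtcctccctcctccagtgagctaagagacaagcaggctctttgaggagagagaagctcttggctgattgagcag
TGTGGT was found once in the *Trpv1* window, with its first base 50 bases before the start, and once in the *Trpv2* window, 24 bases after it. It was not found in the *Trpm8* window, which instead held TATAAA once, 30 bases before the start. These starts are those of RefSeq. The RefSeq start of *Trpv1* lies 143 bases before the gene as GENCODE draws it, so its window ends before the GENCODE start. For *Trpv2* both sources give the same start. The RefSeq start of *Trpm8* lies 29074 bases inside the gene as GENCODE draws it, so a transcript that starts further upstream would have another promoter. Of all 32851 promoters of this length, 16.8% held TGTGGT and 13.6% held TATAAA, so such matches are common. The GC box letters GGGCGG, held by 35.7% of all promoters, were in none of these 3 windows. The windows held few CpG dinucleotides, with 4 in *Trpv1*, 2 in *Trpv2* and 1 in *Trpm8*, against a median of 7 over all promoters.

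Depth ranged from 148452506 to 167704327 counts in pools of the Trpv1 selection and from 17666710 to 30810863 in those of the capsaicin selection. Levels are given as CPM, the counts of a gene scaled to the same total in every pool. A floor of 3 counts lay between 0.0179 and 0.0202 CPM for the Trpv1 selection and between 0.0974 and 0.17 CPM for the capsaicin selection. The labelled ganglia were checked with marker genes. Of 4 placodal markers, *P2rx2* was at 101 to 448 CPM and *Hoxb5* at 227 to 528 CPM in nodose pools. In jugular pools these were at 0.0775 to 0.271 CPM and 0 to 0.225 CPM. *Phox2a* did not separate the ganglia. It was at 17.8 and 0.00651 CPM in the Trpv1-tdTomato-positive nodose pools and 0.00632 and 19.3 CPM in the negative ones. In both nodose capsaicin pools it was at 0, and in jugular pools at 0 to 0.00596 CPM. Of 4 neural crest markers, *Tac1* was at 337 to 1241 CPM, *Prdm12* at 25.6 to 218 CPM and *Gfra3* at 48.5 to 232 CPM in jugular pools. None of these 3 was above 1.36 CPM in a nodose pool. All 4 crest markers summed to 504 to 1798 CPM in jugular pools and to 0.563 to 49.9 CPM in nodose pools. Of 8 neuronal markers, 7 were at 10 CPM or more in every pool. The 9 glial markers summed to 3782 to 5527 CPM in Trpv1-selected pools but 579 to 771 CPM in capsaicin-selected ones, and their part in any difference between selections was not tested. The 7 macrophage markers summed to 0.17 to 82.1 CPM, with 5 of them at 0 in all pools and *Cd68* at 81.0 CPM in the first nodose capsaicin pool and 20.5 CPM in the first jugular capsaicin pool. The 4 endothelial markers summed to 0 to 30.5 CPM, with *Cldn5* and *Cdh5* at 0 in all pools and *Kdr* at 30.5 CPM in the second Trpv1-tdTomato-positive nodose pool. The 5 fibroblast markers summed to 56.4 to 275 CPM in jugular capsaicin pools, where *Dcn* reached 275 CPM in the first, and to 0 to 43.4 CPM in the other groups. All 5 erythrocyte markers were at 0. The part of these cell types in the results was not tested.

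**Figure D1:**
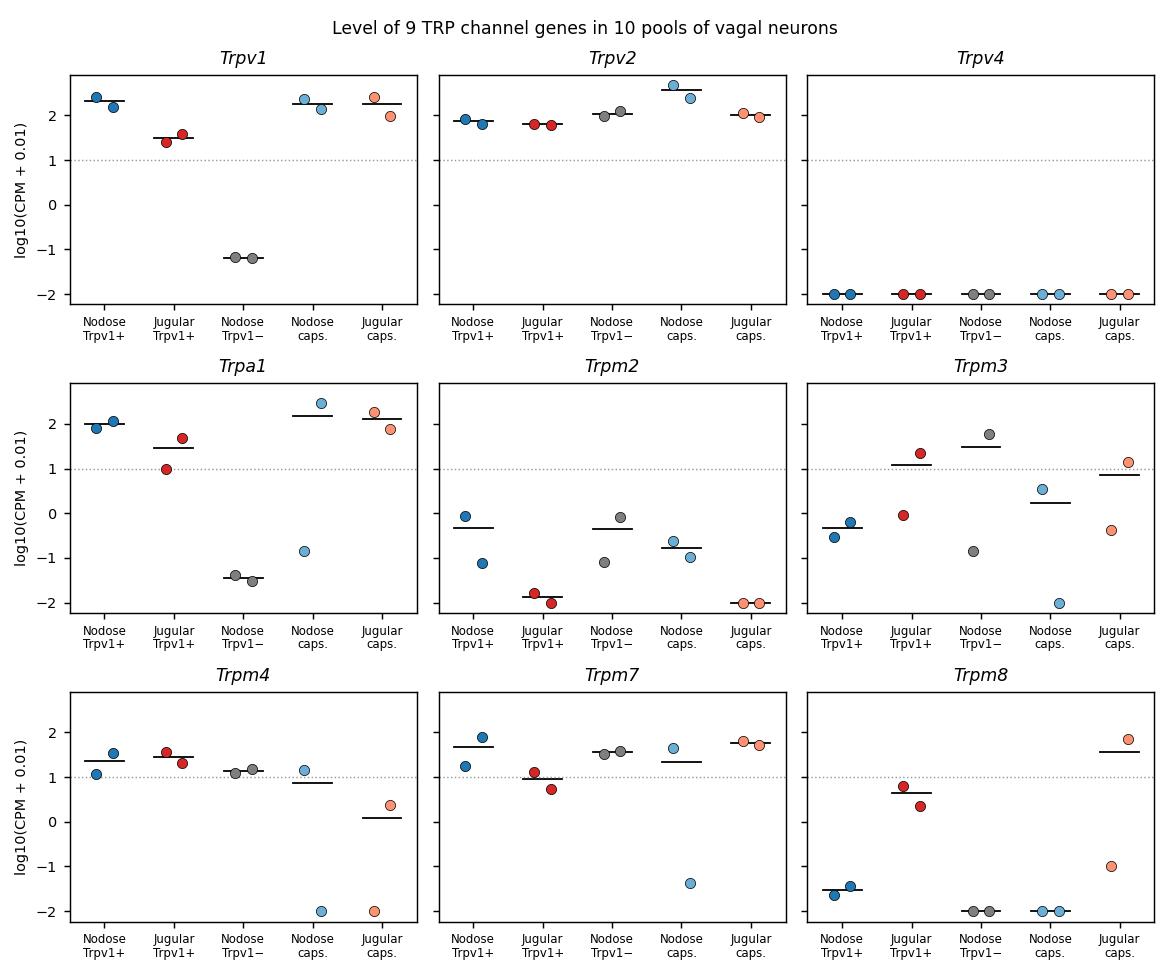
Level of each of the 9 genes in each of the 10 pools (points; CPM on a log10 axis after adding 0.01), by group, with bars at the group means and a dotted line at 10 CPM. Trpv2 lies above the dotted line in all 10 pools and Trpv4 at 0 in all 10, and the points of Trpa1, Trpm4 and Trpm7 in the nodose capsaicin pools lie far apart.

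The genes differed in how many pools they were found in, as the plot of levels by pool shows. *Trpv2* reached 10 CPM in all 10 pools, *Trpv1* in 8, *Trpm7* in 8, *Trpm4* in 7 and *Trpa1* in 6. *Trpm3* reached it in 3 pools and *Trpm8* in 1, and *Trpm2* in none. *Trpv4*, an osmosensitive and warm-sensitive channel, had 0 counts in all 10 pools, which allows up to 0.0179 to 0.17 CPM depending on the depth of the pool. Between 3 and 8 of the 9 genes had more than 3 counts in a pool.

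*Trpv1*, on chromosome 11 from 73234292 to 73261242 (GRCm38), encodes the capsaicin receptor and is the gene both selections were built on, so its level checks the labels. It was at 254 and 156 CPM in the Trpv1-tdTomato-positive nodose pools and at 0.0569 and 0.0539 CPM (9 and 8 counts) in the Trpv1-tdTomato-negative nodose pools, and these groups did not overlap. The ratio of the summed counts was 3705 (exact 95% conditional binomial interval 2314 to 6361, which covers counting error only). The log2 fold change was 12.20 (standard error 0.928), with an adjusted p of 0.0700 by edgeR's quasi-likelihood test, and *Trpv1* was the only 1 of the 7 members tested here that was called. A call needed an adjusted p no higher than 0.1, a change of 2-fold or more and 10 CPM in both pools of a group. Of all 11386 genes tested, 0.0527% were called by this rule. Because the reporter is driven from *Trpv1*, this is a description of the selection and not a finding, and the call was lost when library totals replaced TMM scaling (adjusted p = 0.113, edgeR) or any 1 of the 4 pools was left out (adjusted p = 0.468 to 0.792, edgeR).

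The Trpv1-tdTomato-positive jugular pools held less *Trpv1* RNA than the nodose pools picked by the same reporter. They were at 25.2 and 38.1 CPM, below both nodose pools and above both negative pools, and the ratio of nodose to jugular counts was 6.49 (95% interval 6.35 to 6.62, counting error only). The log2 fold change of nodose over jugular was 2.86 (standard error 0.641; unadjusted p = 0.00600, adjusted p = 0.321 by edgeR), so the difference did not pass the test over all genes. DESeq2's Wald test gave an adjusted p of 1.43e-07 for the same gene. Neurons picked by capsaicin had *Trpv1* at 228 and 138 CPM in nodose pools against 256 and 95.8 CPM in jugular pools, and these groups overlapped (log2 fold change 0.32, standard error 0.854, adjusted p = 0.9999, edgeR). The difference between the selections in the nodose over jugular change was 2.62 on the log2 scale (standard error 1.23; unadjusted p = 0.0600, adjusted p = 0.496, edgeR) and did not pass the test. By group mean the order was nodose Trpv1-tdTomato-positive (205 ± 69.2 CPM, SD, n = 2), nodose capsaicin (183 ± 64.1), jugular capsaicin (176 ± 113), jugular Trpv1-tdTomato-positive (31.6 ± 9.13) and nodose Trpv1-tdTomato-negative (0.0554 ± 0.00213). The first 3 of these groups overlap in their pools.

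*Trpa1*, on chromosome 1 from 14872648 to 14918862, encodes the irritant receptor and is known to be carried by a subset of TRPV1-expressing neurons. It was at 82.5 and 117 CPM in the Trpv1-tdTomato-positive nodose pools and at 0.0316 and 0.0202 CPM (5 and 3 counts) in the Trpv1-tdTomato-negative ones. The negative pools were thus at or next to the limit of detection, and the ratio of the summed counts was 3825 (95% interval 1941 to 8862, counting error only). On the log2 scale the fold change was 12.21 (standard error 1.47; unadjusted p = 0.000361, adjusted p = 0.342 by edgeR), so it did not pass the edgeR test, and DESeq2's Wald test gave an adjusted p of 4.81e-31. Of all genes tested in this comparison, 6.66% were called by DESeq2, and *Trpv1* and *Trpa1* were the 2 members among them. Jugular Trpv1-tdTomato-positive pools, at 9.79 and 48.7 CPM, also lay above the negative nodose pools.

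Between ganglia, *Trpa1* did not pass the test in either selection. In the Trpv1 selection both nodose pools were above both jugular pools, and the log2 fold change was 1.94 (SE of 1.11, with an adjusted p of 0.657 by edgeR) and ranged from 1.20 to 3.45 when 1 pool was left out. Among capsaicin-selected neurons the nodose pools were at 0.134 and 298 CPM (3 and 9195 counts), so that 1 pool of capsaicin-responding nodose neurons was at the limit of detection and the other held the highest *Trpa1* level of all 10 pools. The jugular pools of that selection were at 186 and 75.1 CPM, between these values. The log2 fold change was 0.81 (standard error 2.46, edgeR), and leaving out 1 pool at a time moved it from -9.86 to 1.82. The ratio of *Trpa1* to *Trpv1*, each in CPM per kilobase of exon, was 0.280 and 0.647 in the Trpv1-tdTomato-positive nodose pools and 0.336 and 1.10 in the jugular ones. It was 0.000506 and 1.87 in the nodose capsaicin pools and 0.627 and 0.677 in the jugular ones, so in the nodose capsaicin group the pools stood at opposite ends of the range.

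*Trpv2*, on chromosome 11 from 62574486 to 62600515, encodes a channel related to TRPV1 that is insensitive to capsaicin and is known from larger sensory neurons and many other cells. It was the only 1 of the 9 genes above 10 CPM in every pool. It was at 97.4 and 122 CPM in the Trpv1-tdTomato-negative nodose pools, 83.8 and 65.0 CPM in the positive nodose pools and 65.0 and 60.4 CPM in the positive jugular pools. The log2 fold changes were -0.20 for positive over negative nodose (standard error 0.644, adjusted p = 0.991) and 0.40 for nodose over jugular (standard error 0.814, adjusted p = 0.957), both by edgeR. Of the capsaicin-selected pools, the nodose ones were at 480 and 244 CPM and the jugular ones at 111 and 92.2 CPM, without overlap. Its log2 fold change was 2.1 (standard error 0.686; unadjusted p = 0.0262, adjusted p = 0.352, edgeR). This was the only member under an unadjusted p of 0.05 in that comparison, where 14.1% of all genes were, and no gene was called by edgeR (0.00%). The difference between the selections in the nodose over jugular change was -1.64 on the log2 scale (standard error 1.09; unadjusted p = 0.166, adjusted p = 0.648, edgeR) and did not pass the interaction test. By group mean the order was nodose capsaicin (362 ± 167 CPM, SD, n = 2), nodose Trpv1-tdTomato-negative (110 ± 17.7), jugular capsaicin (101 ± 13.0), nodose Trpv1-tdTomato-positive (74.4 ± 13.3) and jugular Trpv1-tdTomato-positive (62.7 ± 3.24), and the negative nodose pools overlapped with the jugular capsaicin pools, as did the positive nodose with the positive jugular pools.

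**Figure D2:**
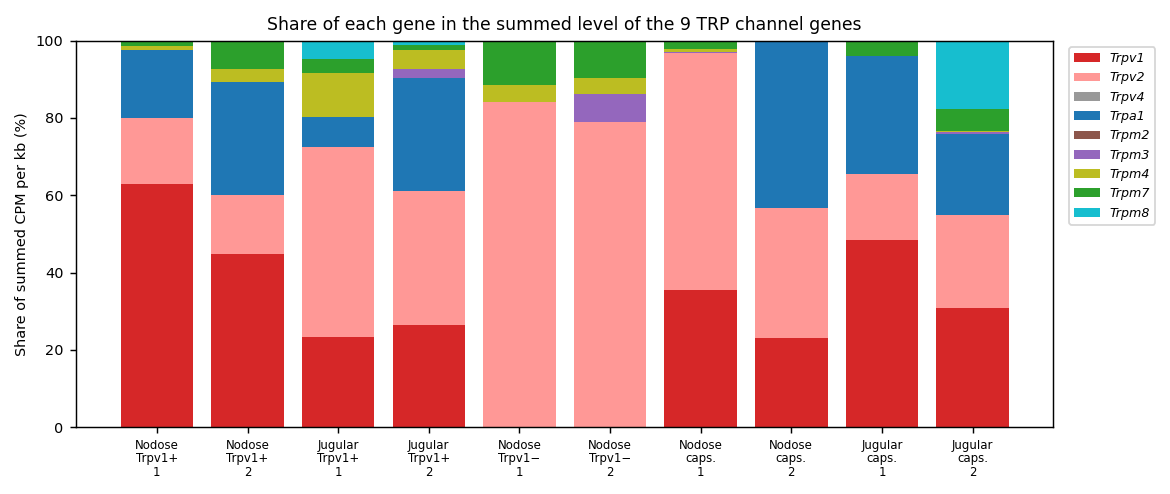
Share of each gene in the summed level of the 9 genes, in percent of summed CPM per kilobase of exon, as stacked bars for each of the 10 pools. Trpv1 takes 62.9% and 44.9% of the Trpv1-tdTomato-positive nodose bars and Trpv2 takes 84.0% and 78.8% of the Trpv1-tdTomato-negative ones.

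Levels per kilobase of exon, which allow genes to be compared with each other, gave each pool a leading channel, as the stacked bars show. *Trpv1* led in both Trpv1-tdTomato-positive nodose pools, with 62.9% and 44.9% of the summed level of the 9 genes, and in both jugular capsaicin pools, with 48.4% and 30.7%. *Trpv2* led in both Trpv1-tdTomato-positive jugular pools (49.2% and 34.5%), in both Trpv1-tdTomato-negative nodose pools (84.0% and 78.8%) and in the first nodose capsaicin pool (61.4%). *Trpa1* led in the second nodose capsaicin pool, with 43.2%. The 3 genes together thus supplied the first of the 9 in every pool, and which of them came first differed between pools of the nodose capsaicin group. The per-kilobase scale depends on the gene model, and *Trpm3*, whose exons over all isoforms sum to 24.4 kilobases, is lowered most by it.

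*Trpm8*, on chromosome 1 from 88277661 to 88389293, encodes the menthol and cold receptor, and its counts came almost wholly from jugular pools. It was at 6.44 and 2.24 CPM (1060 and 375 counts) in the Trpv1-tdTomato-positive jugular pools and at 0.0129 and 0.0260 CPM (2 and 4 counts) in the nodose ones. The ratio of jugular to nodose counts was 222 (95% interval 102 to 605, counting error only). The log2 fold change of nodose over jugular was -7.61 (standard error 2.49; unadjusted p = 0.0269, adjusted p = 0.337, edgeR). It passed neither the adjusted test nor the 10 CPM minimum, and DESeq2's adjusted p was 3.41e-06. In the capsaicin selection it was at 0.0902 and 71.2 CPM (2 and 1257 counts) in the jugular pools and at 0 in both nodose pools, so the jugular level rested on 1 pool of that selection. Summed over the group, the jugular counts were at least 561-fold higher than a floor of 3 counts in the nodose pools. Both Trpv1-tdTomato-negative nodose pools were at 0. The gene overlaps an antisense transcript, 4930453O03Rik, and since the strand used in counting is not given in the sources used here, reads of the pair cannot be told apart.

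*Trpm3*, on chromosome 19 from 22139046 to 22995410, encodes a channel for noxious heat and pregnenolone sulphate. Its pools lay far apart within groups. It was at 0.911 and 22.9 CPM in the Trpv1-tdTomato-positive jugular pools, 0.278 and 0.618 CPM in the positive nodose pools and 0.133 and 60.4 CPM in the negative nodose pools. The capsaicin-selected pools had 3.44 and 0 CPM in nodose against 0.406 and 13.8 CPM in jugular neurons. In 3 groups 1 pool was above 10 CPM and the other under 1 CPM. Nodose over jugular in the Trpv1 selection gave -4.56 on the log2 scale (SE of 2.68, with an adjusted p of 0.675 by edgeR), and the pools of the 2 groups did not overlap. That value rested on the second jugular pool, without which it was -0.92, and it ranged from -5.51 to -4.11 without any other pool. The gene contains the microRNA gene *Mir204* and an antisense transcript, whose reads may have been counted with it or left out.

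*Trpm2*, on chromosome 10 from 77907722 to 77970563, encodes the channel opened by ADP-ribose and oxidative stress, and it was under 1 CPM in all pools. It was at 0.841 and 0.0651 CPM (130 and 10 counts) in Trpv1-tdTomato-positive nodose pools, at 0.0696 and 0.808 CPM in the negative ones and at 0.00607 and 0 CPM (1 and 0 counts) in the jugular ones. Nodose capsaicin pools had 5 and 3 counts and the jugular ones 0. The counts thus lay on the nodose side in both selections, with a ratio of 151 in the Trpv1 selection (95% interval 26.7 to 6005, counting error only). With both selections in 1 fit the log2 fold change of nodose over jugular was 6.90 (standard error 1.90; unadjusted p = 0.00423, adjusted p = 0.265, edgeR), which did not pass the test over all genes.

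*Trpm4* and *Trpm7* were found in all 3 groups of the Trpv1 selection. *Trpm4*, on chromosome 7 from 45302632 to 45333780, encodes a calcium-activated channel for monovalent cations. It was at 11.5 and 35.5 CPM in the Trpv1-tdTomato-positive nodose pools, 36.0 and 20.9 CPM in the jugular pools and 12.1 and 15.4 CPM in the negative nodose pools, and these groups overlapped in both comparisons. The log2 fold changes were -0.15 for nodose over jugular (standard error 1.55, adjusted p = 0.996, edgeR) and 1.12 for positive over negative nodose (standard error 1.65, edgeR). In the capsaicin selection it was at 14.4 and 0 CPM in nodose pools against 0 and 2.38 CPM in the jugular ones.

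*Trpm7*, on chromosome 2 from 126791565 to 126876230, encodes a magnesium- and calcium-permeable channel fused to a kinase that is found in most cell types. It was at 17.9 and 77.9 CPM in the Trpv1-tdTomato-positive nodose pools, 12.7 and 5.32 CPM in the jugular pools and 33.7 and 38.1 CPM in the negative nodose pools. The log2 fold change of nodose over jugular was 2.53 (SE of 1.65, with an adjusted p of 0.725, edgeR) and ranged from 1.15 to 3.33 when 1 pool was left out. By capsaicin selection it was at 44.0 and 0.0325 CPM (987 counts and 1 count) in nodose pools and at 64.4 and 52.9 CPM in jugular pools. The second nodose capsaicin pool, which had the highest *Trpa1* level, thus held 1 count of *Trpm7* and 0 counts of *Trpm3* and *Trpm4*. It also had the fewest genes detected, 7889 at 30810863 counts. The first nodose capsaicin pool had 8462 genes detected and the jugular capsaicin pools 9378 and 10010. Pools of the Trpv1 selection had 12153 to 13029. The part of this lower detection in the low levels of these channels was not tested.

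**Figure D3:**
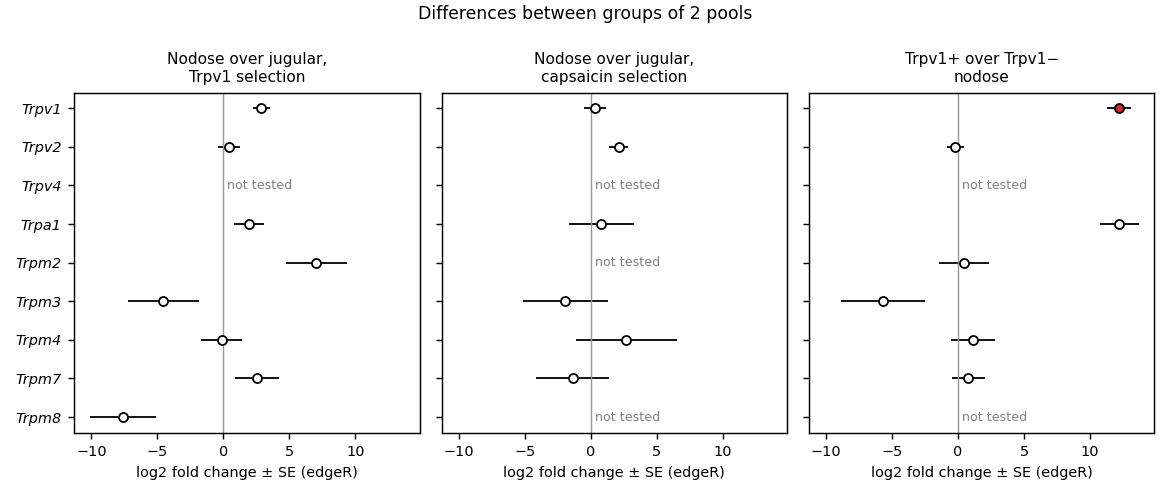
Log2 fold change of each tested member by edgeR (points) with its standard error (bars), for nodose over jugular in the Trpv1 selection, nodose over jugular in the capsaicin selection and Trpv1-tdTomato-positive over negative nodose; filled red points passed the call rule. Only Trpv1, at 12.20 in the last panel, is red, and Trpa1 lies beside it at 12.21.

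Counted over the members, edgeR called 0 of 8 tested in the nodose against jugular comparison of the Trpv1 selection, where 0.318% of all 10990 genes were called. DESeq2 called 1 of 8, *Trpv1*, where it called 10.2% of all genes. At an unadjusted p under 0.05 edgeR had 3 members, *Trpv1*, *Trpm2* and *Trpm8*, against 11.9% of all genes. The pools of the groups did not overlap for 6 of 8 members, and for 42.3% of all genes. Of these 6, *Trpv1*, *Trpa1*, *Trpm2* and *Trpm7* were higher in nodose pools, as were 17.9% of all genes, and *Trpm3* and *Trpm8* were lower, as were 24.4%. The median log2 fold change of the tested members was 1.17, and that of all genes 0.03.

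In the capsaicin selection 0 of 6 members were called by edgeR and 0 by DESeq2, which called 10.7% of all 8181 genes. *Trpv2* was the 1 member with an unadjusted p under 0.05 by edgeR. The pools did not overlap for 2 of 6 members and for 41.0% of all genes. *Trpv2* was higher in nodose pools, as were 11.6% of all genes, and *Trpm7* lower, as were 29.4%. Between Trpv1-tdTomato-positive and negative nodose pools the groups did not overlap for 3 of 7 members and for 41.8% of all genes, and 11.1% of all genes had an unadjusted p under 0.05. *Trpv1* and *Trpa1* were higher in positive pools, as were 13.4% of all genes, and *Trpv2* was lower, as were 28.4%. With DESeq2's size factors in place of the pool totals, a scaling added after the data were seen, the members not overlapping were 7 of 8 (*Trpv2* joined, higher in nodose) in the Trpv1 selection, 1 of 6 (*Trpm7* dropped out) in the capsaicin selection and 3 of 7 (*Trpm4*, higher in positive pools, took the place of *Trpv2*) between positive and negative nodose pools. The comparison shares its positive pools with the nodose against jugular comparison, so their results are not independent. With both selections in 1 fit, 0 of 8 members were called by edgeR and 0 by DESeq2, against 0.577% and 10.03% of all genes, and edgeR had 2 members, *Trpm2* and *Trpm8*, at an unadjusted p under 0.05, against 11.1% of all genes. In the interaction of ganglion and selection 0 of 8 members were called by either tool (0.00% of all genes by edgeR and 10.9% by DESeq2), and edgeR had 0 members at an unadjusted p under 0.05, against 10.3% of all genes. With 2 pools against 2, an exact two-sided permutation test of a single gene cannot go below p = 0.333, so the tests rest on the spread estimated across genes.

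**Figure D4:**
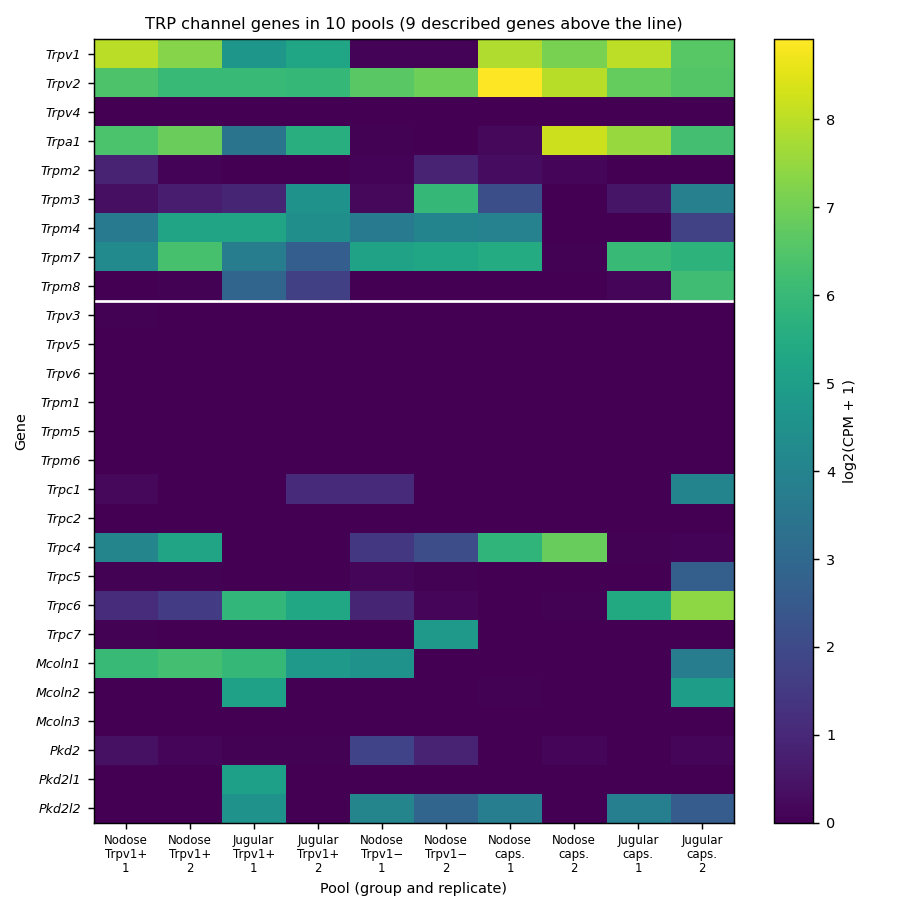
Level of the 9 genes and of further TRP genes in each of the 10 pools, as log2(CPM + 1) in colour. Trpc6 is coloured in the jugular columns and Trpc4 in the nodose columns, more weakly in the Trpv1-tdTomato-negative ones. In all, 7 rows, Trpv4 among them, are at 0 throughout.

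Among other TRP genes of the files, *Trpc4* and *Trpc6* of the canonical (TRPC) subfamily had levels that lay apart between the ganglia in both selections, as the colour map of the family shows. *Trpc6*, a diacylglycerol-gated channel, was at 58.1 and 38.9 CPM in Trpv1-tdTomato-positive jugular pools against 1.18 and 1.97 CPM in the positive nodose pools. The negative nodose pools had it at 0.885 and 0.121 CPM. In the capsaicin selection it was at 41.2 and 166 CPM in jugular against 0 and 0.0325 CPM in nodose pools. *Trpc4*, a channel opened downstream of receptors coupled to G proteins, had the opposite distribution. It was at 15.5 and 35.7 CPM in Trpv1-tdTomato-positive nodose pools against 0.00607 and 0.00596 CPM in the positive jugular ones. In the capsaicin selection it was at 55.4 and 114 CPM in nodose against 0.0451 and 0.0566 CPM in jugular pools. The Trpv1-tdTomato-negative nodose pools had *Trpc4* at only 1.72 and 3.33 CPM, so the higher levels were those of the other nodose groups.

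With both selections in 1 fit *Trpc4* rose in nodose over jugular by 11.56 on the log2 scale (standard error 1.97, adjusted p = 0.0388, edgeR). The call was lost without either Trpv1-tdTomato-positive jugular pool (adjusted p = 0.119 and 0.132, edgeR), the second nodose capsaicin pool (0.185) or either jugular capsaicin pool (0.121 and 0.149). Within the Trpv1 and the capsaicin selection edgeR called 0 of 6 and 0 of 4 of the further TRP genes tested, against 0.318% and 0.00% of all genes. DESeq2 called *Trpc4* and *Trpc6* in each selection, where it called 10.2% and 10.7% of all genes. *Mcoln1*, the lysosomal mucolipin channel, was at 62.4 and 74.6 CPM in Trpv1-tdTomato-positive nodose pools against 60.9 and 26.5 CPM in the positive jugular pools. It was at 0 in 3 of the 4 capsaicin pools. Of the remaining genes 6 were at 0 in all pools, namely *Trpv5*, *Trpv6*, *Trpm5*, *Trpm6*, *Trpc2* and *Mcoln3*, and *Trpv3* and *Trpm1* had at most 5 counts in any pool.

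A list of 24 genes whose products are known to bind, modify or couple to these channels was also read. edgeR called 0 of 20 tested in the nodose against jugular comparison of the Trpv1 selection, 0 of 19 in the capsaicin selection and 0 of 20 between positive and negative nodose pools. DESeq2 called *Pirt* in the first, *Prkca*, *Syt9* and *Tmem100* in the second and none in the third. Of all genes tested in these comparisons, edgeR called 0.318%, 0.00% and 0.0527%, and DESeq2 called 10.2%, 10.7% and 6.66%. *Pirt*, a membrane protein that binds TRPV1 and TRPM8, was at 127 and 98.9 CPM in nodose pools against 234 and 311 CPM in Trpv1-selected jugular pools (log2 fold change -1.11 with a standard error of 0.445, adjusted p = 0.432, edgeR). *Prkca*, a protein kinase C that phosphorylates TRPV1, was at 3.17 and 0.0325 CPM in nodose pools against 128 and 420 CPM in the jugular ones of the capsaicin selection. Its log2 fold changes were -1.69 (standard error 0.897, adjusted p = 0.616, edgeR) in the Trpv1 selection and -7.34 (standard error 2.28, adjusted p = 0.352, edgeR) in the capsaicin selection. *Ano1*, a calcium-activated chloride channel that couples to TRPV1, was at 0 in all pools.

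The genes with the most similar profiles were named for the 5 members at 10 CPM or more in both pools of a group, by the mean absolute difference of log2(CPM + 1), centred on each gene's mean, over 10 pools and 8067 genes. For *Trpv1* they were *Adck3* (1.14), *Zfp617* (1.29) and *Zscan21* (1.30), against a median of 3.06 over all genes. For *Trpa1* they were *Lsm10* (1.14), *Elp3* (1.26) and *Zfp444* (1.42), against 3.19. For *Trpv2* they were *Maged1* (0.304), *Idh3a* (0.342) and *Hprt* (0.365), against 1.91. For *Trpm4* they were *Ccdc23* (0.386), *Atp5g2* (0.5) and *Trappc6b* (0.528), against 1.82, and for *Trpm7* they were *Chn1* (0.499), *Fsd1l* (0.535) and *Mga* (0.540), against 1.88. The same 10 pools gave both the level and the likeness, and pools share depth and selection.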

How the data were processed

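RNA of hand-picked mouse vagal neurons was sequenced in 10 pools. The authors deposited raw read counts per gene symbol, 1 file per pool, without normalization; the labels' processing notes name CASAVA 1.8.2, TopHat2 2.0.9, Bowtie2 2.1.0.0 and HTSeq, with the mouse genome build mm10 (GRCm38). How strand was used in counting, and any filter on reads, is not given in the sources used here. Pools were grouped by the labels. The 9 members and all gene lists were chosen with earlier results of these data known.

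Each comparison was fitted to the counts of its own pools with edgeR 4.0.16 (TMM scaling, filterByExpr, glmQLFit and glmQLFTest; R 4.3.3), with p-values adjusted by Benjamini-Hochberg over all genes tested. Standard errors are the log2 fold change over the square root of F. The thresholds of a call (adjusted p 0.1, fold 2, 10 CPM in both pools of a group) are the study's. CPM is the count over the pool's total on 1 scale for all pools, and CPM per kilobase uses the summed exons of GENCODE vM21. DESeq2 1.42.0 (Wald test, no shrinkage), other scalings, no filter, *Rn45s* left out, a joint fit, the replicate block and leaving out each pool were the alternatives. Scripts were tested on simulated data, with a pass mark set only for a small spread between pools. That test checks the code and not the power in these data. Pools with the same replicate number showed no shared deviation over genes (correlation 0.00441, -0.0175 and -0.0099). This cannot exclude that they came from the same mouse. The genes named are all members, further TRP genes at 10 CPM in both pools of a group, the 4 regulators with the smallest p or called, and the 3 most similar genes, and some genes that these rules or the marker lists hold are not reported here.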

Additional observations from a re-analysis of the deposited data

How the results depend on the processing

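With 2 pools a group, leaving out 1 pool leaves a lone pool that is assumed to vary like the others. The members called changed from 0 to 1 with DESeq2 in the nodose against jugular comparison of the Trpv1 selection. Between Trpv1-tdTomato-positive and negative nodose pools they changed from 1 to 2 with DESeq2, and to 0 with library totals, with the replicate block (adjusted p of *Trpv1* 0.308, edgeR) and without any 1 pool (0 to 0). Of 528 refits of 44 log2 fold changes, 472 kept direction and side of the adjusted p threshold, 17 lost the threshold, 12 gained it and 27 turned, all of the last among members. The cause was not tested.

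With the replicate block, *Trpa1* in the capsaicin selection was at -3.64, and *Trpm4* and *Trpm7* over both selections at -0.19 and -0.094. *Trpm2* in the interaction was at 2.70 with DESeq2. Whether pools with the same number belong together is not given by the labels. The block moved the genes called from 35 to 13 in the Trpv1 selection and from 0 to 20 in the capsaicin selection. It moved them from 6 to 1 between positive and negative nodose pools and from 69 to 41 over both selections. In the last of these *Trpc4* had an adjusted p of 0.188 (edgeR).

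Leaving out 1 pool gave these ranges of log2 fold change where a direction turned. In the Trpv1 selection *Trpm4* ranged from -1.14 to 0.43. In the capsaicin selection *Trpv1* ranged from -0.25 to 1.32, *Trpa1* from -9.86 to 1.82, *Trpm3* from -10.06 to 2.05 and *Trpm4* from -7.48 to 10.28. Between positive and negative nodose pools *Trpv2* ranged from -0.41 to 0.018, *Trpm2* from -2.37 to 3.02, *Trpm3* from -6.69 to 2.07 and *Trpm7* from -0.60 to 1.47. Over both selections *Trpm4* ranged from -1.60 to 1.93 and *Trpm7* from -0.27 to 1.57. In the interaction *Trpa1* ranged from -0.15 to 11.95, *Trpm2* from -0.69 to 1.54, *Trpm3* from -6.53 to 7.79, *Trpm4* from -12.55 to 9.56 and *Trpm8* from -1.43 to 7.80. Ranges that kept their direction were also wide, among them *Trpm3* in the Trpv1 selection (-5.51 to -0.92) and over both selections (-5.82 to -1.53), *Trpm7* in the capsaicin selection (-10.00 to -0.38) and in the interaction (2.59 to 12.68), and *Trpm4* between positive and negative nodose pools (0.15 to 1.72).

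The genes called in the Trpv1 selection, the capsaicin selection, positive against negative nodose, both selections and the interaction were 35, 0, 6, 69 and 0 by edgeR, 1123, 879, 758, 1200 and 1309 by DESeq2 and 59, 122, 10, 222 and 95 without the filter. A joint fit called 71 in the Trpv1 selection and 15 between positive and negative nodose pools. With library totals the split of higher and lower calls was 20 and 20 against 20 and 15 in the Trpv1 selection, and 28 and 51 against 32 and 37 over both selections. Library totals moved the median log2 fold change of all genes from 0.01 to -0.35 between positive and negative nodose pools. Neither DESeq2's size factors nor library totals in edgeR turned the direction of a member.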
